A study of Mus musculus with 12 samples.

Results

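The first minutes of an occlusion of the middle cerebral artery (MCAO) and the day after it were compared directly in the circular RNAs of mouse whole blood. The comparison took 6 of the 12 arrays of the series, 3 after 5 min and 3 after 24 h of MCAO, chosen by their sample labels. The animals were male mice of the Balb/c strain, with an age of 8 weeks in the labels and another in the methods, and the artery was closed by a silicon-coated nylon monofilament under isoflurane. The other 6 arrays, 3 of sham-operated mice and 3 taken after 3 h of MCAO, entered the model and are given as levels. Blood came from cardiac puncture, and its RNA was treated with RNase R, an exonuclease that digests linear RNA, before Cy3 labeling and hybridization to the Arraystar Mouse circRNA Array v2. Of 14236 circRNA probes on the array, 10664 were bright enough on all 12 arrays to be tested. The labels number 3 replicates in each group and do not say whether an array holds the blood of 1 animal, so the p-values below measure the spread between these arrays.

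Circular RNAs (circRNAs) arise when the spliceosome joins the end of an exon back to the start of an earlier one, which closes the transcript into a ring. Lacking free ends, they resist exonucleases and persist in blood cells, platelets and plasma, and many are made from genes that are long and active in neurons. In MCAO, the brain region fed by the artery loses its blood flow, and blood drawn soon after the occlusion reflects an immediate phase and blood drawn a day later an established infarct with its systemic response. Whole blood holds red cells, platelets and leukocytes, and a lower level in it cannot be told apart into fewer cells of a type and less of the RNA per cell. Because linear RNA was digested and the probes read back-splice junctions, linear marker genes of these cells cannot be checked on the array.

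Blood at 24 h differed from blood at 5 min in a large part of the measured circRNAs. With the limit on the adjusted p at 0.05 (limma, Benjamini-Hochberg over all 10664 probes), 3203 probes (30.0%) were called different, of which 1253 (11.7%) were higher and 1950 (18.3%) lower at 24 h. With a difference of at least 2 log2 units as well, that is 4-fold, 710 probes (6.66%) remained, 351 (3.29%) higher and 359 (3.37%) lower. In 346 of these rises and 353 of these falls the 3 arrays of 24 h lay beyond all 3 arrays of 5 min, which held for 4542 (42.6%) of all tested probes. The median difference over all tested probes was -0.12 log2 units, and the 5th and 95th percentiles were -1.78 and 1.73. The split of calls depended on the scaling: rises were 39.1% of all calls here and 52.8% with the processed signal of the scanner software, which shifted the median of all probes by 0.21 log2 units, and they were 49.4% of the larger calls here, 64.0% with cyclic loess and 65.05% with the processed signal. The smallest two-sided p that an exact test can reach with 3 arrays in each group is 0.1, so the calls rest on limma's pooling of the variance (median residual SD 0.43 log2 units).

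**Figure D1:**
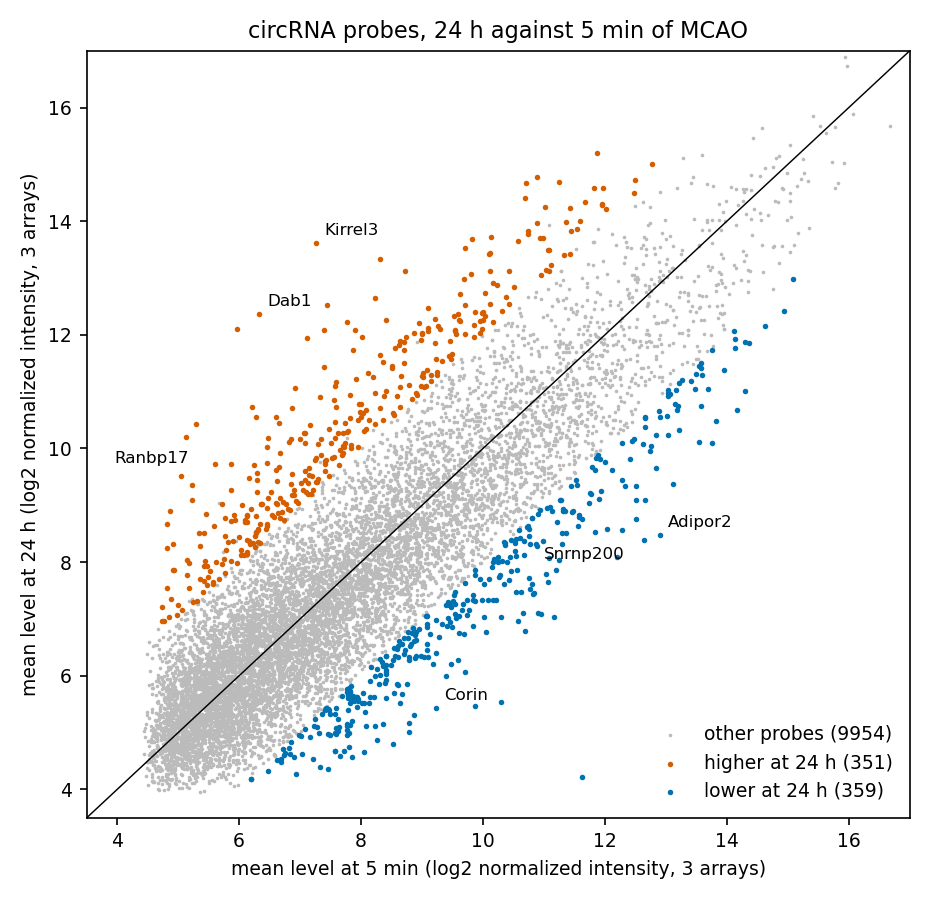
Mean log2 normalized intensity of each of the 10664 tested circRNA probes at 5 min (x axis) and at 24 h (y axis) of MCAO, 3 arrays each, with the line of equal levels. The 351 probes called higher at 24 h by at least 2 log2 units are orange, the 359 called lower are blue and the rest gray, and both colors spread over almost the whole range of levels.

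The groups lay on different slides, and time and slide cannot be told apart in this comparison. Slide 1 held the 3 arrays of 5 min, the 3 of sham and replicates 1 and 2 of 3 h, and slide 2 held the 3 arrays of 24 h and replicate 3 of 3 h. Negative control spots had a median raw intensity of 26 to 26.5 on the arrays of 5 min and of 89 to 101 on those of 24 h, with a local background between 21 and 24 on each of the 6. The arrays of 5 min were the dimmer ones (median raw intensity of the circRNA probes 50 to 69, against 160 to 220.5 at 24 h), and 70.9% to 77.1% of circRNA probes were well above background there, against 73.0% to 90.2% at 24 h. Adding slide as a random block left 1629 probes called (722 higher, 907 lower), and adding it as a fixed term left 193 (172 higher, 21 lower). The fixed term can be estimated only from the 3 arrays of 3 h, 2 on slide 1 and 1 on slide 2. Leaving out replicate 2 or replicate 3 of 5 min cut the 3203 calls to 2091 or 1871, while the 710 larger ones became 566 or 625.

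Names, types and mm10 coordinates were available for 901 of the tested probes. They come from a list of circRNAs chosen for a change against sham on these same arrays. Of the 901, 494 (54.8%) were higher and 245 (27.2%) lower at 24 h, and 272 and 174 of them by at least 2 log2 units. Because of that choice, its high share of calls is no independent evidence, and the median difference of its members, 1.38 log2 units, serves below as the background for the groups of host genes. The host gene is the gene whose transcript forms the ring, and most of the 756 host genes had a single circRNA among the 901. Some listed circRNAs of a host gene have junctions within 10 bp of each other, and their probes may read the same ring. They are counted singly here and in all lists, types and shares below, so members of a list are not all independent.

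The largest rises included circRNAs of genes for neuronal adhesion, migration and synaptic scaffolds. The circRNA furthest apart was mmu_circRNA_43956, an intronic ring within Kirrel3, a synaptic adhesion protein of the immunoglobulin family (chr9:34536915-34538449, plus strand). Its log2 levels were 8.70, 6.08 and 6.98 at 5 min and 13.85, 14.22 and 12.77 at 24 h (replicates 1 to 3). All 3 arrays of 24 h thus lay more than 4 log2 units above the highest of 5 min, and the fitted difference was 6.35 ± 0.57 (SE, limma adjusted p = 0.00014), or 81.8-fold. An intronic circRNA of Dab1, the adaptor that carries the Reelin signal in migrating neurons (mmu_circRNA_37286, chr4:103754180-103764967, plus strand), came next among the rings with a host gene. Its levels were 7.42, 5.56 and 6.01 at 5 min and 13.30, 13.23 and 10.54 at 24 h, a difference of 6.03 ± 0.73 (limma adjusted p = 0.000237). Replicate 3 of 24 h was the lowest of its group here, as it was in 241 of the 272 named rises of at least 2 log2 units.

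An intergenic circRNA, mmu_circRNA_31169 (chr17:94694281-94695119, minus strand), stood between these in size. It was at 6.78, 5.27 and 5.85 at 5 min and at 12.95, 12.98 and 10.40 at 24 h, a difference of 6.14 ± 0.61 (limma adjusted p = 0.000158). The list gives it no host gene, and its arrays of 24 h were all above those of 5 min by several log2 units. Manf encodes a secreted factor made under stress of the endoplasmic reticulum, and mmu_circRNA_45047 lies antisense to it (chr9:106889019-106889196, plus strand). Its levels were 7.93, 7.12 and 7.27 at 5 min and 13.38, 13.47 and 10.70 at 24 h, which puts it 5.07 ± 0.63 log2 units higher (limma adjusted p = 0.000264). The groups were again far apart, with the lowest array of 24 h above the highest of 5 min.

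Genes of the excitatory synapse were among the hosts of the 12 largest named rises. Cnksr2 links postsynaptic density proteins to kinase signalling, and its mmu_circRNA_45876 (chrX:157888397-157945416, minus strand) was at 9.22, 6.54 and 7.55 at 5 min and 13.17, 12.77 and 10.72 at 24 h. The difference of 4.45 ± 0.66 (limma adjusted p = 0.000664) is 21.9-fold. Cacng3 is an auxiliary subunit of AMPA-type glutamate receptors, and its mmu_circRNA_42273 (chr7:122754505-122762323, plus strand) went from 8.95, 7.73 and 7.99 to 13.16, 13.42 and 11.35, a difference of 4.42 ± 0.50 (limma adjusted p = 0.00019). In both, replicate 1 of 5 min was the highest of its group and replicate 3 of 24 h the lowest, and the groups did not overlap.

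The other large rises came from host genes of varied roles. Tmem178b, a transmembrane protein gene, had the tightest levels at 24 h of the 12, where mmu_circRNA_40203 was at 13.03, 13.55 and 13.42 against 10.11, 6.70 and 8.12 at 5 min (5.02 ± 0.62, limma adjusted p = 0.000264). Adck1, a mitochondrial protein of the atypical kinase family, had an intronic ring, mmu_circRNA_19077, at 5.81, 5.10 and 4.98 at 5 min and 11.94, 11.20 and 8.14 at 24 h. Camsap1 caps the minus ends of microtubules, and its mmu_circRNA_33184 was at 7.64, 6.72 and 6.97 and then at 12.97, 13.10 and 9.75. Both differed by about the same amount, 5.13 ± 0.72 and 4.83 ± 0.73 log2 units. Xdh, the enzyme that forms uric acid from purines, had mmu_circRNA_30884 at 8.27, 6.69 and 7.23 at 5 min and 13.26, 12.74 and 10.28 at 24 h (4.70 ± 0.63). Ranbp17, a nuclear transport receptor, had mmu_circRNA_23191 near the lower end of the scale at 5 min (4.95, 5.22 and 4.98) and at 9.93, 10.12 and 8.51 at 24 h (4.47 ± 0.51). The limma adjusted p of these 4 lay between 0.000194 and 0.000701.

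The rise of Snhg14 turned on replicate 1 of 24 h. The circRNA mmu_circRNA_002520 of Snhg14, a long non-coding host of small nucleolar RNAs, was at 6.63, 5.86 and 6.17 at 5 min and at 14.55, 9.12 and 8.53 at 24 h. Replicate 1 of 24 h stood more than 5 log2 units above the other two, the SE was 1.61 and the limma adjusted p 0.0498 for a difference of 4.51. At 3 h the array on slide 2 was also 6.40 log2 units above the mean of those on slide 1. With slide as a random block the adjusted p was 0.29, and with slide as a fixed term the difference was -1.88.

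The largest falls included circRNAs of a membrane receptor, a spectrin, a spliceosome helicase and ion channels. Adipor2, a receptor of adiponectin, had mmu_circRNA_40842 (chr6:119361827-119365380, minus strand) at 12.83, 12.90 and 12.97 at 5 min, 3 arrays within 0.2 log2 units, and at 8.02, 8.58 and 8.84 at 24 h. It was 4.42 ± 0.42 log2 units lower at 24 h (limma adjusted p = 0.000158), so that the level at 5 min was 21.4 times that at 24 h. Snrnp200 is the helicase that unwinds U4 from U6 RNA in the spliceosome, and its mmu_circRNA_34504 (chr2:127237460-127238820, plus strand) fell from 12.21, 12.95 and 12.77 to 8.53, 8.43 and 8.19. The difference was -4.26 ± 0.44 (limma adjusted p = 0.000158), and the arrays within each group lay within 1 log2 unit. Evi5, a regulator of Rab GTPases in the cell cycle, had mmu_circRNA_39121 (chr5:107795698-107799260, minus strand) at 11.92, 12.42 and 12.25 at 5 min and 7.91, 7.88 and 8.46 at 24 h (-4.11 ± 0.42, limma adjusted p = 0.000158).

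The fall of largest size among named circRNAs was that of an intronic ring with no symbol read, mmu_circRNA_26097 (chr13:16002457-16003880, minus strand). It was at 9.21, 10.95 and 10.70 at 5 min and at 5.51, 5.46 and 5.66 at 24 h, a difference of -4.75 ± 0.71 (limma adjusted p = 0.00068). On the slide-2 array of 3 h it was 3.01 log2 units below the other two of that group. Sptbn1, the beta spectrin of the membrane skeleton, had mmu_circRNA_23142 (chr11:30219578-30219772, minus strand) at 8.84, 10.63 and 10.14 and then at 6.23, 5.23 and 4.94 (-4.40 ± 0.73, limma adjusted p = 0.00108).

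Pore proteins were among the falls as well as the rises. Cacna1d forms the pore of an L-type calcium channel, and its mmu_circRNA_27348 (chr14:30045214-30047371, minus strand) was at 10.74, 11.52 and 11.24 at 5 min and at 9.66, 5.66 and 5.75 at 24 h. Replicate 1 of 24 h was about 1 log2 unit below the lowest array of 5 min while the other two were lower still, and the SE was 0.79 for a difference of -4.14 (limma adjusted p = 0.00239). Unc80, a subunit of the sodium leak channel complex, had the same order of arrays at 24 h in mmu_circRNA_20282, at 11.46, 10.28 and 10.94 and then 8.77, 6.10 and 6.44 (-3.79 ± 0.63, limma adjusted p = 0.0011). In Msto1, which acts in mitochondrial distribution, mmu_circRNA_35751 also stayed highest on replicate 1 of 24 h (10.34, 10.95 and 10.78 at 5 min and 8.32, 5.62 and 6.44 at 24 h).

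Corin, a membrane protease that activates natriuretic peptides, had the fall, of the 12, that moved least when slide was taken into account. Its mmu_circRNA_38760 (chr5:72329611-72343117, minus strand) was at 9.90, 8.65 and 9.14 at 5 min and at 6.07, 5.23 and 4.99 at 24 h, -3.80 ± 0.36 log2 units apart (limma adjusted p = 0.000158). With slide as a fixed term the difference was -4.02 (adjusted p = 0.0297), and within 3 h the slide-2 array differed from the others by only 0.22. Igf2, an imprinted growth factor gene, behaved differently in mmu_circRNA_002246, which was at 8.90, 8.78 and 8.68 at 5 min and at 4.73, 5.56 and 4.73 at 24 h (-3.78 ± 0.67, limma adjusted p = 0.00162). There the slide-2 array of 3 h was -2.48 from the other two arrays, and the difference with slide as a fixed term was -1.30 (adjusted p = 0.523). Fndc3b, a membrane protein gene with fibronectin domains, had the last of the 12 falls, mmu_circRNA_19277, at 13.22, 11.81 and 12.50 and then 9.90, 7.99 and 8.41 (-3.74 ± 0.51).

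**Figure D2:**
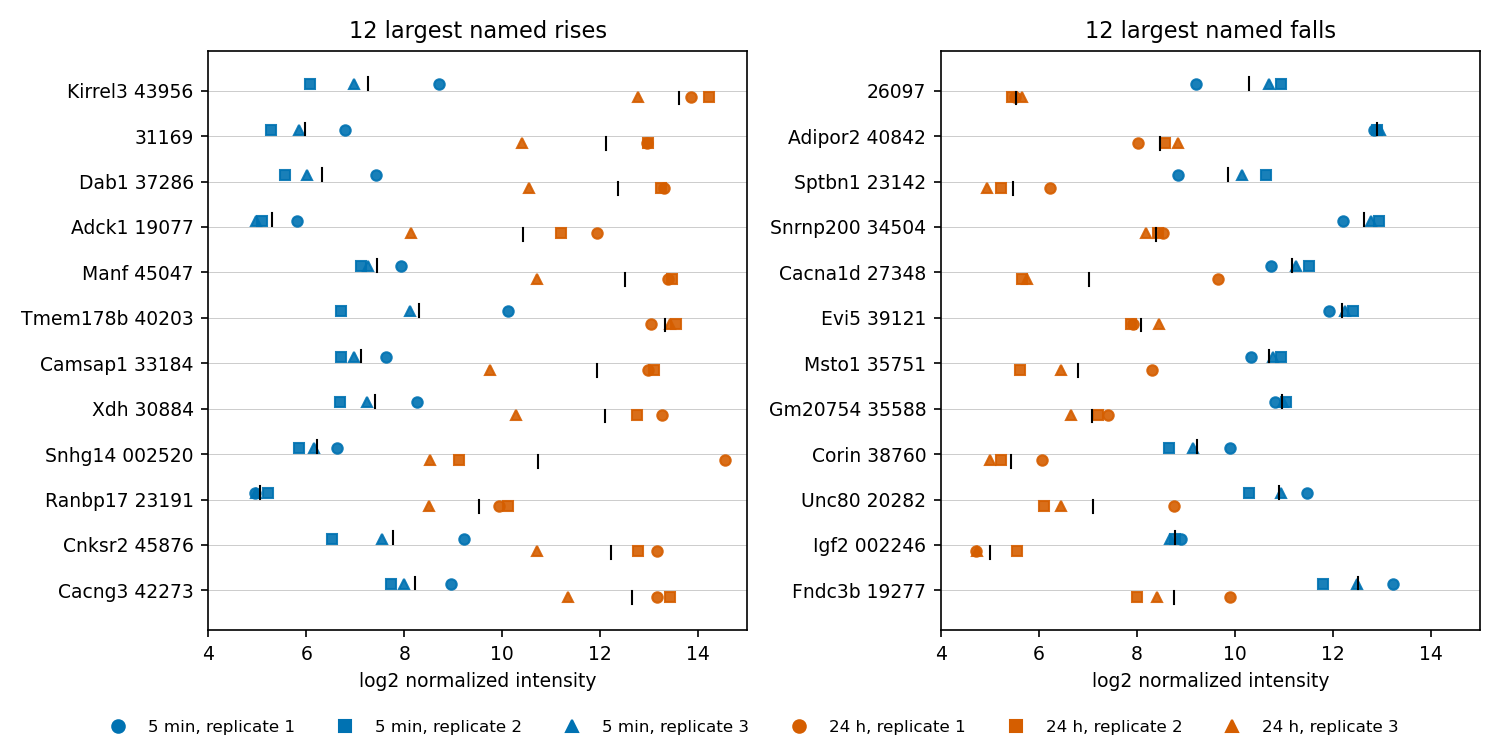
Log2 normalized intensity (x axis) of the 12 largest named rises (left) and the 12 largest named falls (right), 1 circRNA for each host gene, labelled by host gene and list number. Blue symbols are the 3 arrays of 5 min and orange symbols the 3 arrays of 24 h, with a short black bar at each mean. In every line the 2 colors do not overlap, which was a condition of the choice, and replicate 1 of 24 h lies far from the other two in Snhg14 and Cacna1d.

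Of these 24 circRNAs, 11 of the 12 rises and all 12 falls were also called with slide as a random block, the exception being that of Snhg14. Under a fixed slide term 5 rises and 4 falls were called, and 11 rises and all 12 falls had the same direction. Leaving out 1 array ended the call of 1 of them, again that of Snhg14, which was lost without any 1 of the arrays of sham or 5 min, replicate 2 of 3 h or replicate 1 or 2 of 24 h.

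The levels in sham and at 3 h were set beside those of 5 min and 24 h. Among the 272 named rises of at least 2 log2 units, the mean at 3 h lay between those of 5 min and 24 h in 264, and the sham mean was nearer to 5 min in 258 and below both times in 242. For Kirrel3 the means were 6.15 ± 0.06 in sham (SD, n = 3 in each group), 7.25 ± 1.33 at 5 min, 10.04 ± 0.57 at 3 h and 13.61 ± 0.75 at 24 h, rising in that order. Cnksr2 had the same order, with 6.50 ± 0.32 in sham and 10.72 ± 0.26 at 3 h. Among the 174 named falls of that size, 3 h lay between in 167, and sham was nearer to 5 min in 167, but it lay above both times in 58 and between them in 114. Adipor2 was one of the latter, with 11.08 ± 0.39 in sham against 12.90 ± 0.07 at 5 min and 8.48 ± 0.42 at 24 h. Over all 10664 tested probes, 3 h lay between 5 min and 24 h in 6124, and sham was nearer to 5 min in 6536. The rises and falls were chosen for a large gap between 5 min and 24 h, which favors a mean at 3 h between them. Their names come from a list chosen for a change against sham on these same arrays, which bears on where sham lies. The counts for sham are therefore no independent evidence. Sham below, above or between both times was not counted over all tested probes. Sham shared slide 1 with 5 min, and 3 h lay on both slides, so slide and time cannot be told apart in this order either. These group means were not tested against each other here.

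The arrays within a group were not alike in these circRNAs. In the 272 named rises, replicate 1 of 5 min was the highest of its group in 252 and replicate 2 the lowest in 237, with medians over these circRNAs of 8.57, 7.36 and 7.70 for replicates 1 to 3. At 24 h the medians were 11.57, 11.06 and 10.08, lowest on replicate 3. In the 174 named falls, replicate 1 of 5 min was the lowest in 134, and the medians were 9.21, 10.29 and 10.12 at 5 min and 7.23, 7.00 and 6.94 at 24 h. Over all 10664 tested probes, replicate 1 of 5 min was the highest of its group in 4711 and the lowest in 5157. Replicate 2 of 5 min was the lowest in 4020 of them, and replicate 3 of 24 h in 3513. Replicate 1 of 5 min was thus mostly at one end of its group over all probes as well. The median difference between the groups was 2.66 log2 units for these rises and -2.65 for these falls.

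Probes without a name reached similar sizes. Probe ASCRP4011715 was at 9.61, 13.07 and 12.22 at 5 min and at 4.27, 4.26 and 4.11 at 24 h (-7.42 ± 1.06, limma adjusted p = 0.00053). Its 3 arrays of 24 h were near the bottom of the scale and only 1 of them was well above background, so the size of the fall is uncertain. With slide as a fixed term it was -4.44 (adjusted p = 0.218), and the slide-2 array of 3 h was -2.98 from the other two of its group. Probe ASCRP4011336 fell from 13.25, 12.95 and 13.17 to 9.94, 9.59 and 8.59 (-3.75 ± 0.48, limma adjusted p = 0.000328). The largest unnamed rise was that of ASCRP4001622, from 5.61, 4.54 and 5.22 to 12.02, 10.92 and 7.68 (5.08 ± 0.78, limma adjusted p = 0.000752). Probe ASCRP4009917 was at 5.14, 4.64 and 4.81 at 5 min, not well above background on any of the 3 arrays, and at 10.26, 8.79 and 7.63 at 24 h, at least 16.4-fold higher (limma adjusted p = 0.00813). The slide-2 array of 3 h was 4.47 log2 units above the other two of its group for that probe, and with slide as a fixed term its difference was -0.44.

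Some circRNAs were seen at only 1 of the 2 times. By the scanner software's calls, 482 of the 14236 probes were well above background on all 3 arrays of 24 h and on none of 5 min, and 61 the other way round. The arrays of 24 h were the brighter ones, as given above. Of the 482, 92 had passed the filter on low values and 34 were called, and of the 61, 30 and 22. Over all tested probes 30.0% were called. The sets were chosen on the same arrays, so these calls are no independent evidence. A bound on the fold was set against the dim group's own signal or the lowest signal well above background on each array, whichever was higher. It reached at least 4-fold in 37 of the 482 and in 15 of the 61.

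Of the named circRNAs, 3 were among those seen at 24 h only, and none of those seen at 5 min only had a name. Ncam2, a neural cell adhesion molecule, had mmu_circRNA_29958 (chr16:81432708-81490394, plus strand) at 4.73, 5.02 and 4.71 at 5 min and 10.71, 8.73 and 6.58 at 24 h, at least 14.4-fold higher (limma adjusted p = 0.00179). The intergenic mmu_circRNA_40444 was at 5.25, 4.77 and 4.71 and then at 9.25, 8.60 and 7.09, at least 10.6-fold higher (limma adjusted p = 0.000277). Gpc5, a heparan sulfate proteoglycan of the cell surface, had the intronic mmu_circRNA_28019 at 4.81, 5.02 and 4.60 and then at 9.88, 7.47 and 5.28, at least 6.63-fold higher (limma adjusted p = 0.0175). In all 3, replicate 1 of 24 h was the highest and replicate 3 the lowest, and without replicate 3 of 5 min the circRNA of Gpc5 lost its call.

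Of 17 circRNAs of glutamate receptor and postsynaptic scaffold genes, 14 (82.4%, against 54.8% over all named circRNAs) were higher and 2 lower at 24 h at an adjusted p of at most 0.05, and their median difference was 2.05 log2 units, against 1.38 over all named circRNAs and -0.12 over all tested probes. The pair that fell were mmu_circRNA_45879 of Cnksr2, from 7.05, 10.12 and 9.45 to 7.19, 6.36 and 6.29, and mmu_circRNA_29200 of the NMDA receptor subunit gene Grin2a, from 6.16, 8.80 and 8.36 to 6.38, 5.17 and 5.57. In both, replicate 1 of 5 min was more than 2 log2 units below the other two and overlapped the arrays of 24 h, and neither was called once replicate 2 or 3 of 5 min or replicate 2 of 24 h was left out. For Grin2b, another subunit of that receptor, mmu_circRNA_000233 was at 5.92, 5.78 and 5.80 and then 8.63, 7.20 and 6.67 and was not called (limma adjusted p = 0.0539). Without replicate 2 or 3 of 5 min, 12 or 13 of the 17 were called higher and none lower. With slide as a fixed term, 2 of the 17 were called higher and 0 lower, where 92 and 13 of all 901 named circRNAs were.

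Neither the fall of mmu_circRNA_45879 nor that of mmu_circRNA_29200 was called with slide as a random block (adjusted p = 0.0947 for Cnksr2 and 0.0997 for Grin2a). The spans of the 2 Cnksr2 rings overlap on the X chromosome (chrX:157906669-157996684 for the one that fell, minus strand), and the rise of mmu_circRNA_45876 was still called with that block (adjusted p = 0.00521).

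Of 31 circRNAs of neural adhesion and axon guidance genes, 20 (64.5%, against 54.8% over all named circRNAs) were higher and 2 (6.45%, against 27.2%) lower, with a median of 1.82 against 1.38. Beside Kirrel3 and Dab1, Lingo1, a membrane protein that restrains myelination, had mmu_circRNA_44266 (chr9:56653599-56653832, minus strand) at 6.53, 6.31 and 6.52 at 5 min and 10.09, 10.01 and 9.12 at 24 h (3.29 ± 0.35, limma adjusted p = 0.000158). The fall with the smallest p was that of Chl1, a relative of the L1 adhesion molecule, whose mmu_circRNA_40693 went from 9.09, 10.78 and 10.35 to 7.49, 7.35 and 7.16 (-2.74 ± 0.53, limma adjusted p = 0.00265). Ephb2, an ephrin receptor gene, had mmu_circRNA_013924 at 7.98, 8.85 and 8.72 and 8.64, 4.86 and 5.33, where replicate 1 of 24 h lay among the arrays of 5 min (limma adjusted p = 0.0424), and its call ended when any 1 of 7 arrays was left out (all 3 of 5 min, replicates 2 and 3 of 24 h, replicate 2 of sham and replicate 1 of 3 h). Without replicate 2 or 3 of 5 min, 13 or 15 of the 31 were called higher, where 382 or 396 of all 901 were. With slide as a fixed term, 6 of the 31 were called higher and 0 lower.

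Ion channel hosts had calls in both directions. Of 13 circRNAs of potassium, sodium and chloride channel genes, 9 (69.2%, against 54.8% over all named circRNAs) were higher and 1, the Unc80 ring, lower, with a median of 1.32 against 1.38. With slide as a fixed term, 2 of the 13 were called higher and 0 lower. Kcnma1, the large-conductance calcium-activated potassium channel, had mmu_circRNA_010777 (chr14:23494538-23509900, minus strand) at 9.10, 7.01 and 7.59 at 5 min and 12.61, 12.17 and 11.50 at 24 h (4.19 ± 0.53, limma adjusted p = 0.000326). Kcnq3, a subunit of the neuronal M-current channel, had an intronic ring, mmu_circRNA_28661, at 8.53, 6.77 and 7.40 and then 10.01, 10.68 and 10.71 (2.90 ± 0.41, limma adjusted p = 0.000481). Of 14 circRNAs of calcium channel and calcium release genes, 7 (50%) were higher and 4 (28.6%, against 27.2% over all named circRNAs) lower, with a median of 1.01. The 7 became 4 without replicate 2 or 3 of 5 min or replicate 2 of 24 h, and 3 with slide as a random block. Cacna1c, the cardiac and neuronal L-type pore, had mmu_circRNA_006741 higher (8.27, 7.23 and 7.67 and then 10.44, 10.12 and 9.52), whereas Cacna1d, a related pore, had the large fall given above. Ryr3, a calcium release channel, had mmu_circRNA_34233 2.66 ± 0.51 higher, and Stim1, the sensor of calcium stores, had mmu_circRNA_42040 2.66 ± 0.42 lower (limma adjusted p = 0.00248 and 0.000931).

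CircRNAs of RNA-binding and splicing protein genes went the other way. Of 33 measured, 21 (63.6%, against 27.2% over all named circRNAs) were lower and 9 (27.3%, against 54.8%) higher, and their median was -2.31 log2 units, against 1.38 over all named circRNAs. The median stayed below 0 in every scaling tried, from -2.38 (processed signal) to -1.69 (normexp with offset 50). It was -1.38 with slide as a fixed term, where 2 were still called lower and 1 higher. On the slide-2 array of 3 h the median of the 33 was -0.59 relative to the slide-1 arrays, against -0.44 over all named circRNAs.

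The rings that fell came from the spliceosome core to translational repressors. Beside Snrnp200, the U1-associated Luc7l2 (mmu_circRNA_40180), the branch-point factor Sf3b1, the splicing factor Srsf1 (mmu_circRNA_24053) and the hnRNP genes Hnrnpu and Hnrnpm each had a lower ring. Rbm33, an RNA-binding motif protein, had mmu_circRNA_38328 (chr5:28331110-28352643, plus strand) at 8.25, 9.64 and 8.74 at 5 min and 5.33, 4.80 and 5.77 at 24 h (-3.57 ± 0.38, limma adjusted p = 0.000158). Pum2, a repressor that binds the 3' ends of mRNAs, had mmu_circRNA_19057 at 10.56, 10.95 and 10.81 and then 8.64, 6.76 and 7.21 (-3.24 ± 0.44, limma adjusted p = 0.000438).

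The 9 that rose included regulators known from neurons. Celf2, a splicing and translation regulator, had the intronic mmu_circRNA_32945 at 7.15, 5.98 and 6.22 at 5 min and 10.38, 10.24 and 9.47 at 24 h (3.58 ± 0.57, limma adjusted p = 0.000954), and Cnot10, a subunit of the deadenylase complex, had mmu_circRNA_45217 at 6.78, 6.00 and 6.05 and then 8.86, 8.74 and 7.99 (2.25 ± 0.30, limma adjusted p = 0.000409). The neuronal splicing factor Rbfox1 had 2 intronic rings that share their end, 2.43 and 2.04 log2 units higher. Syf2, a spliceosome component, had one ring of each direction from the same start, mmu_circRNA_37780 (-2.92) and mmu_circRNA_37781 (2.35).

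Of 33 circRNAs of regulators of small GTPases, 21 (63.6%) were higher and 4 (12.1%) lower, with a median of 1.51, against 54.8%, 27.2% and 1.38 over all named circRNAs. The 4 became 2 without replicate 3 of 5 min, replicate 2 of 24 h or with slide as a random block. With slide as a fixed term, 1 of the 33 was called higher and 0 lower. Dock9, an activator of Cdc42, had mmu_circRNA_003739 at 6.99, 5.78 and 6.05 at 5 min and 8.69, 8.61 and 8.25 at 24 h (2.24 ± 0.33, limma adjusted p = 0.000616), and Rasa3, a Ras GTPase-activating protein, had mmu_circRNA_42572 at 11.58, 8.36 and 9.54 and then 13.84, 13.80 and 13.38 (3.85 ± 0.59, limma adjusted p = 0.00079). Arhgap21, a GTPase-activating protein, had the fall of smallest p, mmu_circRNA_33110, from 10.33, 11.26 and 11.03 to 8.05, 8.30 and 8.62 (limma adjusted p = 0.000875). G protein and cyclic nucleotide signalling hosts had 8 of 18 (44.4%) higher and 3 (16.7%) lower, with a median of 1.27. Gng2, a G protein gamma subunit, had a short intronic ring, mmu_circRNA_19110, 3.01 ± 0.48 higher, and Gnaq, a G protein alpha subunit, had mmu_circRNA_32258 2.65 ± 0.43 higher. Rgs6, a regulator that switches G proteins off, had mmu_circRNA_25460 2.33 ± 0.40 lower, and the anchoring protein gene Akap7 had mmu_circRNA_21761 2.20 ± 0.37 lower.

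Hosts of chromatin regulators were spread over both directions, 19 of 38 (50%) higher and 10 (26.3%) lower, with a median of 1.29, near the 54.8%, 27.2% and 1.38 over all named circRNAs. Mllt10, a cofactor of histone methylation, had mmu_circRNA_003170 at 11.28, 9.18 and 9.89 at 5 min and 13.53, 13.71 and 13.06 at 24 h (3.32 ± 0.49, limma adjusted p = 0.000594), and Jade3, of a histone acetyltransferase complex, had mmu_circRNA_45396 3.01 ± 0.42 higher. Kansl1, a scaffold of another such complex, had 2 rings that differ by a single base at each end, mmu_circRNA_006502 and mmu_circRNA_19044. They fell by 2.74 and 2.48 log2 units, and their probes may read the same ring. Kinase hosts had 14 of 33 (42.4%) higher and 11 (33.3%) lower and a median of -0.20. Ptk2b, a calcium-activated tyrosine kinase, had mmu_circRNA_27734 at 9.35, 8.05 and 8.48 and then 12.00, 12.02 and 11.45 (3.20 ± 0.36, limma adjusted p = 0.000185), and Nek9, a mitotic kinase, had mmu_circRNA_25527 at 11.07, 10.60 and 10.76 and then 8.20, 7.48 and 7.16 (-3.20 ± 0.36, limma adjusted p = 0.00019). Pik3c2a, a lipid kinase, had mmu_circRNA_003208 2.64 ± 0.36 higher.

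Among ubiquitin ligases and proteases 18 of 34 (52.9%) were higher and 13 (38.2%) lower, with a median of 1.34, against 54.8%, 27.2% and 1.38 over all named circRNAs. Birc6, a ligase that restrains cell death, had mmu_circRNA_013298 (chr17:74668758-74670382, plus strand) at 12.20, 12.29 and 12.34 at 5 min and 8.83, 8.24 and 8.64 at 24 h (-3.71 ± 0.37, limma adjusted p = 0.000158), and Ube2o, a conjugating enzyme known from the maturation of red cells, had mmu_circRNA_24439 at a mean of 12.75 ± 0.25 and then at 10.25, 9.47 and 10.38 (-2.71 ± 0.32, limma adjusted p = 0.000199). Both were still called with slide as a fixed term (-2.50 and -3.06). Trim21, an antibody receptor in the cytosol, had an antisense ring, mmu_circRNA_19469, 1.98 ± 0.33 higher, and Rnf150 had mmu_circRNA_006917 1.75 ± 0.30 higher.

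Membrane traffic hosts had 15 of 32 (46.9%) higher and 10 (31.2%) lower (median 1.04), against 54.8% and 27.2% over all named circRNAs. Rab6b, a small GTPase of Golgi transport in neurons, had mmu_circRNA_45000 (chr9:103160819-103167192, plus strand) at 6.74, 6.34 and 6.75 at 5 min and 10.67, 10.88 and 10.14 at 24 h. Its difference of 3.95 ± 0.31 had a smaller limma adjusted p (0.000117) than that of Kirrel3, and it was 4.08 with slide as a fixed term (adjusted p = 0.0297). Sorl1, a sorting receptor, had mmu_circRNA_44014 2.70 ± 0.37 higher, whereas Stx5a, a Golgi syntaxin, and Vps13d, a lipid transfer protein, had mmu_circRNA_32224 and mmu_circRNA_37893 2.85 and 2.40 lower. Cilium and centrosome hosts had 14 of 25 (56%) higher and 5 (20%) lower (median 1.63), near those shares. Bbs9, of the Bardet-Biedl complex of cilia, had mmu_circRNA_43867 2.38 ± 0.31 higher, Armc4 had mmu_circRNA_31230 2.58 ± 0.34 higher, and Tub and Cep128 had mmu_circRNA_42057 and mmu_circRNA_25612 3.55 and 2.65 lower.

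**Figure D3:**
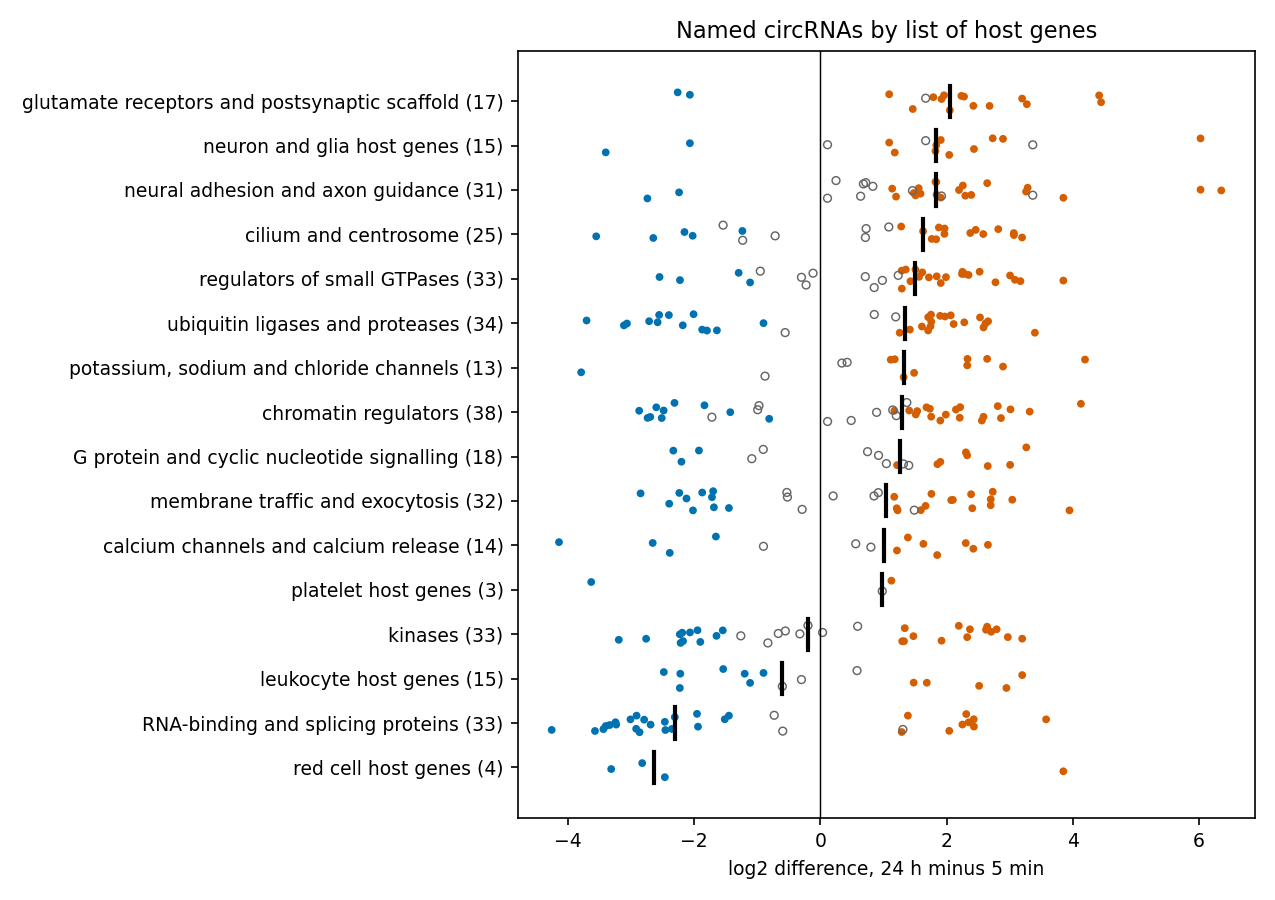
Log2 difference between 24 h and 5 min (x axis) of each named circRNA, by list of host genes, with the number of circRNAs measured in parentheses and the lists ordered by median (black bar). Orange and blue points passed an adjusted p of 0.05 (limma, Benjamini-Hochberg) as higher or lower at 24 h, and open points did not. The list of glutamate receptors and scaffolds has the highest median, 2.05, and the RNA-binding list the lowest of the 12 functional lists, -2.31.

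Host genes known from blood cells did not share one direction. Of 4 circRNAs of red cell genes, 3 were lower and 1 higher. Alas1, the housekeeping enzyme of heme synthesis, had mmu_circRNA_45033 at 14.12, 12.99 and 13.62 and then 11.66, 10.13 and 10.47 (-2.82 ± 0.42, limma adjusted p = 0.00065). Dmtn, a protein of the red cell membrane skeleton, had mmu_circRNA_27766 tight in both groups, at 8.87, 8.75 and 8.75 and then 6.14, 6.39 and 6.44 (-2.46 ± 0.27, limma adjusted p = 0.000158). The 1 that rose was the Rasa3 ring given above.

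Of 15 circRNAs of leukocyte genes, 5 (33.3%, against 54.8% over all named circRNAs) were higher and 7 (46.7%, against 27.2%) lower, with a median of -0.60. The 7 became 4 without replicate 1 or 3 of 5 min or replicate 1 or 2 of 24 h, with cyclic loess, with the processed signal and with slide as a random block. Without replicate 1 of 5 min the median was 0.13. Adgre1, which encodes the macrophage marker F4/80, had 2 rings from nearly the same start, and mmu_circRNA_30673 was at 6.94, 5.94 and 5.98 at 5 min and 10.00, 9.39 and 8.32 at 24 h (2.95 ± 0.43, limma adjusted p = 0.000587). Samhd1, a nucleotide hydrolase of myeloid cells, had mmu_circRNA_34867 at 7.29, 8.41 and 8.08 and then 4.81, 5.51 and 6.01 (-2.48 ± 0.40, limma adjusted p = 0.000957), and Aim2, a sensor of cytosolic DNA, had mmu_circRNA_21287 2.23 ± 0.48 lower. Cd36, a scavenger receptor on platelets and monocytes, had mmu_circRNA_38143 at 9.18, 10.15 and 9.79 and then 6.65, 6.24 and 5.33 (-3.63 ± 0.75, limma adjusted p = 0.0038), but with slide as a fixed term the difference was -0.59. The platelet gene F13a1 had 2 rings 0.98 and 1.13 log2 units higher, of which the second was called (limma adjusted p = 0.0353) and lost its call without replicate 2 or 3 of either time or replicate 2 of sham. Of 15 circRNAs of neuron and glia genes, 10 (66.7%, against 54.8% over all named circRNAs) were higher and 2 (13.3%) lower, with a median of 1.84. The 10 became 5 without replicate 2 and 6 without replicate 3 of 5 min. The part of cell numbers in any of these differences was not tested.

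By type, exonic rings made up 662 of the 901, and 348 (52.6%) of them were higher and 188 (28.4%) lower. Over all named circRNAs, which were chosen for a change against sham, 54.8% were higher and 27.2% lower. Over all tested probes these shares were 11.7% and 18.3%. All 20 antisense rings were higher, from 1.24 to 5.07 log2 units, and 10 of them by at least 2. Intergenic rings had 15 of 20 (75%) higher and 2 (10%) lower. Intronic rings had 35 of 60 (58.3%) and 19 (31.7%), and sense-overlapping rings 76 of 139 (54.7%) and 36 (25.9%). Exonic, intronic and sense-overlapping rings were thus near the shares over all named circRNAs. The median genomic span of the named circRNAs, introns included, was 10150 bp, and it was 9565.5 bp in the rises and 9253.5 bp in the falls of at least 2 log2 units.

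Host genes with several rings showed both shared and separate courses. Of 81 host genes with at least 2 named circRNAs, 60 had at least 2 calls and 13 had calls in both directions, and 15 genes had at least 3 circRNAs, 48 in all. Gm20754, a predicted non-coding gene, had 3 intronic rings with the same start and different ends that fell together, by 3.86, 3.43 and 3.16 log2 units. Their levels at 5 min were within 10.42 to 11.15 on all arrays, and at 24 h within 6.65 to 7.88. The other ring, mmu_circRNA_35586, begins further upstream, ends where mmu_circRNA_35589 ends and was higher (9.09, 6.85 and 7.85 at 5 min and 10.17, 9.67 and 9.29 at 24 h, 1.78 ± 0.47, limma adjusted p = 0.0136), but not without replicate 2 or 3 of 5 min.

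Tlk1 had calls in both directions, and Pcnx had not. Pcnx, a large membrane protein gene, had mmu_circRNA_19073 4.14 ± 0.46 higher (7.80, 6.24 and 6.73 at 5 min and 11.23, 11.31 and 10.64 at 24 h, limma adjusted p = 0.000172) and mmu_circRNA_25428 1.17 ± 0.31 higher, while mmu_circRNA_25433 was at 5.77, 6.06 and 5.95 and 7.12, 6.23 and 4.99 (difference 0.19 ± 0.62, adjusted p = 0.847). Tlk1, a kinase of chromatin assembly, had mmu_circRNA_33806 higher (2.19 ± 0.55) and mmu_circRNA_33808 and mmu_circRNA_33824 lower (-2.22 ± 0.32 and -1.90 ± 0.46). Without replicate 2 of 5 min the rises of mmu_circRNA_25428 and mmu_circRNA_33806 lost their calls, that of mmu_circRNA_25428 also without replicate 3 of 5 min or replicate 2 of 24 h. In Elf2, an ETS transcription factor, the 3 rings fell by 2.88, 2.37 and 2.25. Their junctions lie within 10 bp of each other, so they may be 1 ring, though the counts of host genes above take them as 3. The 3 rings of Gm21992 share their start and fell by 1.94, 1.93 and 1.89.

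Another set of genes had rings whose mean at 5 min was lower than in sham and at 24 h. All 3 rings of Usp3, a deubiquitinase of histones, were higher at 24 h than at 5 min, by 2.28, 2.53 and 2.62 log2 units, 2 of them with junctions within 10 bp. The ring mmu_circRNA_008057 had means of 9.77 ± 1.43 in sham, 7.08 ± 0.32 at 5 min, 8.91 ± 0.80 at 3 h and 9.61 ± 0.66 at 24 h. All 3 rings of Trpc6, a cation channel, were higher as well (1.39, 1.63 and 2.42), with mmu_circRNA_013636 at 12.26 ± 0.58 in sham, 9.47 ± 0.84 at 5 min and 11.89 ± 0.49 at 24 h. Utrn, the utrophin gene, had 3 of 4 listed rings called higher, of which mmu_circRNA_009056 and mmu_circRNA_18967 have junctions within 10 bp, with sham means from 11.35 to 12.05, means at 5 min from 8.82 to 9.68 and means at 24 h from 10.06 to 11.29. In Mkln1, the muskelin gene, all 3 listed rings were higher by 1.42 to 1.76, and sham was above both times. Here too a pair, mmu_circRNA_009396 and mmu_circRNA_19411, lies within 10 bp at both ends. Of these calls, all 3 of Utrn, all 3 of Mkln1 and 2 of Trpc6 ended without replicate 2 of 5 min or without replicate 3 of 5 min, and 7 of these 8 also without replicate 2 or 3 of 24 h.

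In Phf21a, a reader of unmodified histone tails, none of the 4 listed rings, 2 of them with junctions within 10 bp, was called, with differences from 0.49 to 1.20 and adjusted p values from 0.0619 to 0.422. Over all 494 named circRNAs that were higher at 24 h, sham was above both times in 44 and nearer to 24 h than to 5 min in 49. The mean at 5 min was the lowest of the 4 groups for every called ring of Usp3, Trpc6, Utrn and Mkln1, and with slide as a fixed term none of these rings was called. Of the remaining genes with at least 3 rings, Arhgap10 had 1 ring higher, 1 lower and 1 not called, Lyst 1 higher of 3, 4930447N08Rik 1 higher of 3 and St6galnac3 1 lower of 3.

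**Figure D4:**
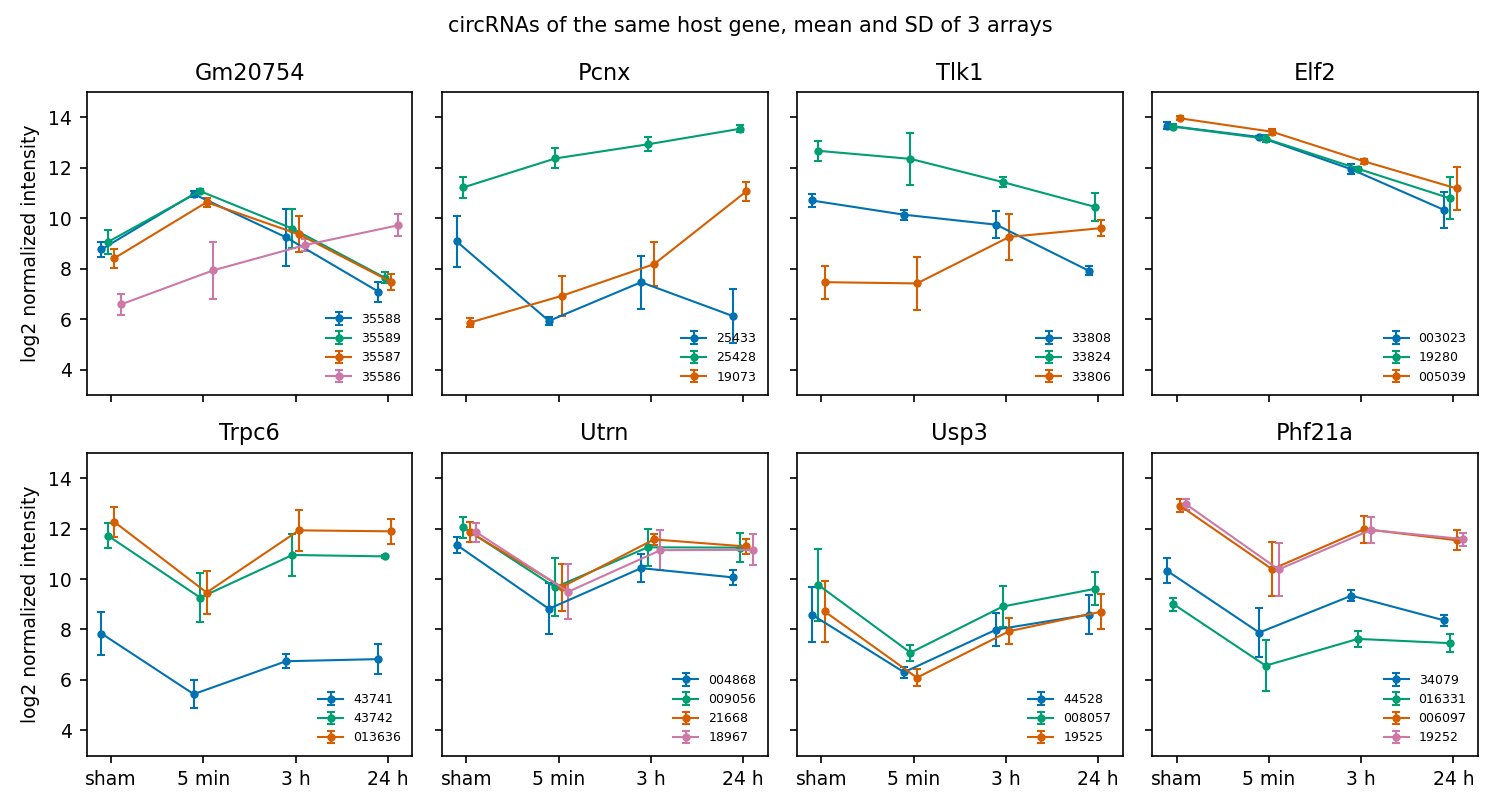
Mean log2 normalized intensity (y axis, bars are the SD of 3 arrays) in sham and at the 3 times of MCAO (x axis, not to scale in time) for the circRNAs of 8 host genes, 1 line per circRNA labelled by list number. In Gm20754, 3 rings peak at 5 min while the other rises to 24 h, the rings of Elf2 fall together, and those of Trpc6, Utrn, Usp3 and Phf21a dip at 5 min.

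The genomic span of 11 named circRNAs holds an annotated miRNA gene on the same strand. The mature sequences of the best known are shown because they tell what these rings, or the introns within them, could carry, and the miRNAs themselves were not measured. They are given 5' to 3' as in RefSeq (GRCm38.p6), with the seed, bases 2 to 8, in capitals. Smc4, a condensin subunit, hosts the cluster of miR-15b and miR-16, whose 5p strands share their seed, within mmu_circRNA_35559 (chr3:69009483-69019325, plus strand):
mmu-miR-15b-5p (chr3:69009775-69009796): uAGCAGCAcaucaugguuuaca
mmu-miR-16-5p (chr3:69009918-69009939): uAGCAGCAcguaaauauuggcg
The non-coding gene A230057D06Rik holds members of the miR-344 family on the minus strand, miR-344b within mmu_circRNA_41532 (chr7:61786069-61814190) and miR-344c and miR-344 within mmu_circRNA_41535 (chr7:61813261-61913335) and mmu_circRNA_41537 (chr7:61813261-61916736), and the 3p seeds of the last pair are the same while that of miR-344b is not:
mmu-miR-344b-3p (chr7:61790522-61790543): cAUUUAGCcaaagccugacugu
mmu-miR-344c-3p (chr7:61837323-61837345): uGAUCUAGucaaagccugacagu
mmu-miR-344-3p (chr7:61877782-61877804): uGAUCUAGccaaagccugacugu

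Of these 11 rings, 7 were higher and 2 lower, where 54.8% of all named circRNAs were higher. The Smc4 ring around miR-15b and miR-16 was at 6.10, 6.52 and 6.52 at 5 min and 8.31, 8.08 and 7.35 at 24 h, 1.53 ± 0.29 log2 units higher (limma adjusted p = 0.00211), with no overlap between the groups. Of the rings around the miR-344 genes, mmu_circRNA_41532 was at 6.25, 5.76 and 5.98 and then 8.89, 8.44 and 7.99 (2.45 ± 0.28, limma adjusted p = 0.000199) and mmu_circRNA_41535 at 6.86, 5.92 and 6.21 and then 8.39, 7.84 and 7.38 (1.54 ± 0.34, limma adjusted p = 0.00487). The longer mmu_circRNA_41537, which shares one end with mmu_circRNA_41535, was at 10.60, 9.77 and 10.05 and 11.54, 11.36 and 10.58 and missed the threshold (limma adjusted p = 0.0535). Of the remaining rings with a miRNA gene inside, those of Foxj2 (mmu_circRNA_40913, 2.03), Arsb (mmu_circRNA_26717, 2.34) and Rab4b (mmu_circRNA_41232, 1.59) and mmu_circRNA_40611 (2.01) were higher. The ring of Nbea (mmu_circRNA_35381, -3.60) and mmu_circRNA_24167 (-2.33) were lower, and that of Nfx1 (mmu_circRNA_36666) differed by -0.08 (adjusted p = 0.922). The fall of the Nbea ring was -0.03 with slide as a fixed term.

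The study designed junction primers for a set of circRNAs, 17 of which were tested here. Of these, 5 were higher and 6 lower at 24 h than at 5 min, and 6 did not pass. Called in either direction were 82.0% of all named circRNAs and 30.0% of all tested probes. The study checked by RT-qPCR circRNAs that it had called different from sham on these same arrays. Beside Kirrel3, Dab1, Tmem178b and Cnksr2, Psmd12, a proteasome subunit, had mmu_circRNA_24344 at 10.56, 7.86 and 8.86 at 5 min and 13.12, 12.90 and 11.42 at 24 h (3.38 ± 0.62, limma adjusted p = 0.00187). Khdrbs1, the Sam68 RNA-binding protein, had mmu_circRNA_37699 at 12.78, 14.37 and 13.52 and then 10.32, 10.00 and 10.03 (-3.44 ± 0.79, limma adjusted p = 0.00632). Slc29a2, a nucleoside transporter, had mmu_circRNA_32190 tight in both groups, at 12.81, 12.81 and 12.86 and then 10.03, 10.29 and 10.39 (-2.59 ± 0.37, limma adjusted p = 0.000495).

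Several of this set were far below sham at both times, and their differences between the times were small or rested on few arrays. Ankrd42 (mmu_circRNA_41878) had a sham mean of 13.73 ± 0.78 and was at 9.21, 10.02 and 9.74 at 5 min and 8.39, 7.28 and 5.81 at 24 h, a difference of -2.50 ± 0.71 (limma adjusted p = 0.0184) that was no longer called without replicate 2 or 3 of 5 min or replicate 3 of 24 h. Tmcc1 (mmu_circRNA_40795, sham 14.58 ± 0.83) was at 11.91, 11.90 and 11.95 and then 11.34, 10.27 and 7.84 (limma adjusted p = 0.0461), a call that ended when any 1 of 7 arrays was left out (all 3 of 5 min, replicates 2 and 3 of 24 h and replicate 2 of sham and of 3 h). Ryr2, a calcium release channel, had a lower sham mean (8.22 ± 1.05), with mmu_circRNA_26021 at 11.18, 9.65 and 10.10 and then 8.75, 8.74 and 8.48 (limma adjusted p = 0.0242), lost without replicate 1 or 3 of 5 min or replicate 2 or 3 of 24 h. The rings of Phka2 (mmu_circRNA_45921, -1.26 ± 0.52), Cep350 (mmu_circRNA_003795, -1.23 ± 0.57), Bbs2 (mmu_circRNA_43344, -0.72 ± 0.65), Sppl2a (mmu_circRNA_34491, -0.26 ± 0.58) and mmu_circRNA_26316 (-0.14 ± 0.55) did not pass, with limma adjusted p values from 0.085 to 0.872. Their sham means were above both time points, that of Bbs2 lowest at 8.64 ± 1.53. Wdr11 (mmu_circRNA_42362) did not pass either, with a sham mean of 8.20 ± 1.05 and levels at 11.83, 9.57 and 10.41 and then 13.18, 12.72 and 11.25 (1.78 ± 0.64, limma adjusted p = 0.0524).

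The slide difference within 3 h bore on rises and falls unequally. There the array on slide 2 minus the mean of those on slide 1 had a median of -0.16 log2 units over all tested probes. In the 351 rises of at least 2 log2 units the median was -0.09, and 164 (46.7%) of them were higher on slide 2. In the 359 falls the median was -0.94, and 330 (91.9%) of them were lower on slide 2. Replicate and slide cannot be told apart in that group either.

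The fixed slide term equals this slide difference within 3 h, which it subtracts from the reported difference, so they are not separate checks. Taking slide into the model as a fixed term therefore moved the falls more. With slide as a fixed term, 338 of the 351 rises kept their sign, with a median of 2.78 log2 units against 2.54 in the reported fit, and 76 were called. Of the 359 falls 358 kept their sign, with a median of -1.54 against -2.41, and 18 were called. With slide as a random block, 311 of the rises and 323 of the falls were called in the same direction. Under the processed signal of the scanner software, 351 of the rises and 353 of the falls were called.

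**Figure D5:**
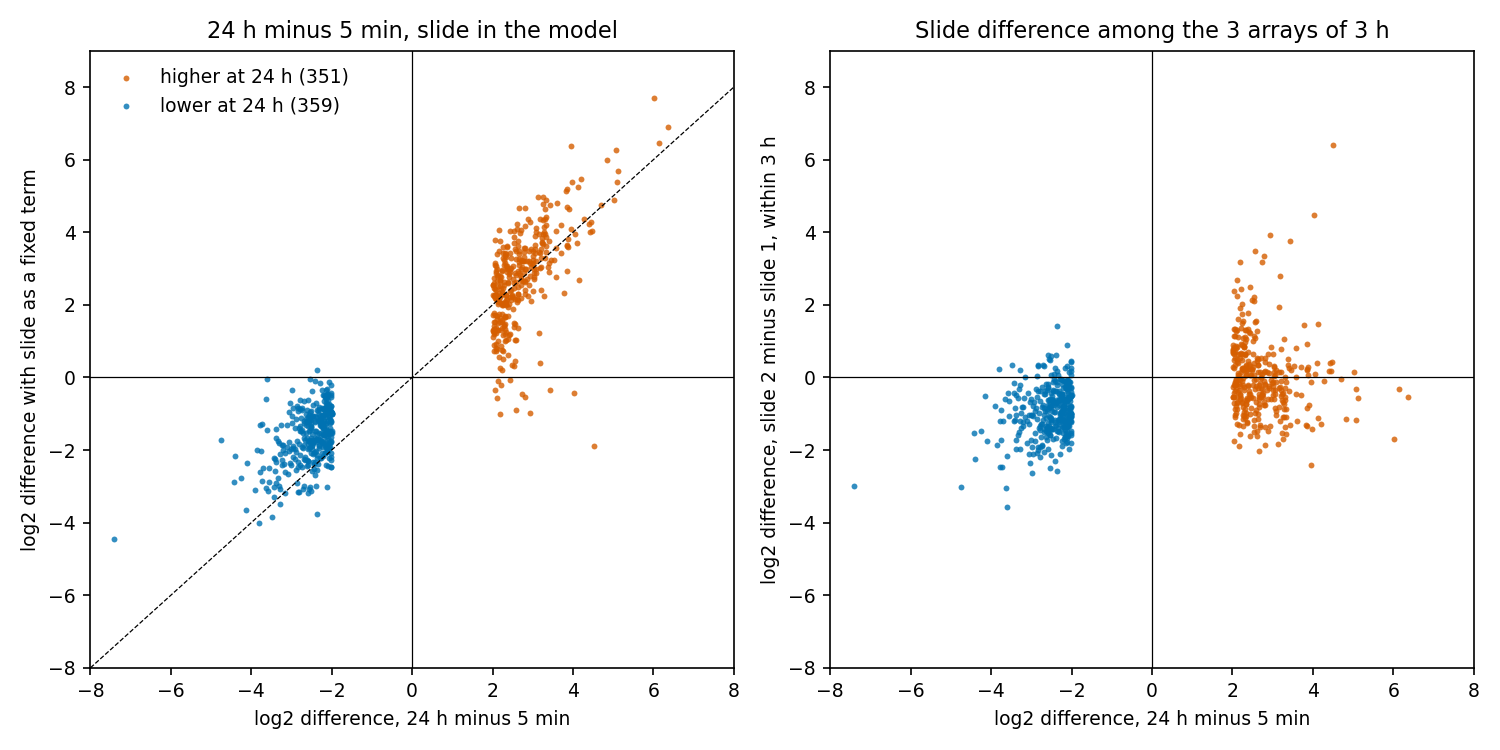
The 710 probes called with at least 2 log2 units, by their log2 difference between 24 h and 5 min (x axis), against the same difference with slide as a fixed term (left, y axis, dashed line of equality) and against the slide difference among the 3 arrays of 3 h (right, y axis, slide 2 minus slide 1). Rises (orange) lie around the line of equality and around 0 on the right, and falls (blue) lie nearer to 0 than the line and mostly below 0 on the right. The left value is the x value minus the right value, so the panels are not separate checks.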

How the data were processed

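The authors scanned 12 one-colour arrays (Cy3, Agilent Feature Extraction 11.0.1.1) and deposited, for each array, the raw median intensity of every spot and its local background, a processed intensity, flags, and a table of log2 values normalized between arrays. The raw intensities were used here. Background was subtracted with normexp (offset 0), arrays were quantile normalized, and log2 values were taken (limma 3.58.1, statmod 1.5.0, R 4.3.3). A probe was tested if it exceeded, on all 12 arrays, the 95th percentile of the 77 negative control spots by 10%. The number of arrays limits the precision.

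A model with the 4 groups was fitted to all 12 arrays with empirical Bayes and a mean-variance trend, and p-values of the contrast of 24 h and 5 min were adjusted by Benjamini-Hochberg over all tested probes. The script was tested on simulated data. Groups came from the sample labels. Errors after ± are SE for differences and SD (n = 3) for group means. The authors' own comparisons were used only to match the names of their list to probes.

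Of the 903 circRNAs that the study's supplementary list names, 902 were matched to 1 probe each. The match set the mean level and the difference from sham in that list against those of the values normalized here (largest deviation 0.000499). 901 passed the filter. Names, types and mm10 places come from that list. Named were the 12 largest rises and 12 largest falls whose groups did not overlap (1 per host gene), in each of 12 lists of host genes up to 2 circRNAs in each direction of smallest p, those with junction primers, those of host genes with at least 3, up to 2 unnamed probes in each direction, and the named ones seen at 1 time only. The Grin2b ring, those of the RNA-binding list beyond 2 in each direction, those of blood cell genes and those with a miRNA gene inside were chosen after their values were seen. The members and lists were chosen with earlier results of these data known.

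Alternatives were no background subtraction, an offset of 50, cyclic loess, the processed signal over its 75th percentile, the deposited log2 values, other filters, the 2 groups alone, no trend, robust estimation, array weights, slide or replicate as terms, and each array left out. The processed signal with slide as a fixed term was added after seeing the data. Some circRNAs are not reported here.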

Additional observations from a re-analysis of the deposited data

How the results depend on the processing

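The 3203 calls became 193 with slide as a fixed term, 1629 with slide as a random block, 7657 with array weights and 350 with the processed signal and slide as a fixed term, and between 1871 and 3523 when 1 array was left out. The 710 larger calls became 446 without background subtraction, 421 with an offset of 50, 179 with slide as a fixed term, 345 with the processed signal and slide as a fixed term, and 2704 at a threshold of 1 log2 unit, and between 566 and 897 when 1 array was left out. The other alternatives kept both counts within 1.5 times. The fixed term rests on 3 arrays, which limits its precision, and the cause of the other shifts was not tested. The replicate numbers do not pair the samples (correlations of deviations 0.171, 0.0572 and 0.0854), and a replicate block gave 3293 and 714 calls. Of 127 circRNAs followed singly, 107 were called, 84 of them under every setting without slide as a fixed term and 16 under every setting.

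Signs turned as follows (log2 difference). With slide as a fixed term: Snhg14 mmu_circRNA_002520 -1.88, ASCRP4009917 -0.44, 4930447N08Rik mmu_circRNA_36100 0.44, Sppl2a mmu_circRNA_34491 0.35, Phka2 mmu_circRNA_45921 0.52, mmu_circRNA_26316 0.71 (random block 0.0556), Bbs2 mmu_circRNA_43344 0.92 and Lyst mmu_circRNA_19084 0.18. With the processed signal and slide as a fixed term, the values were -1.67 for Snhg14, -0.0194 for ASCRP4009917, 0.50 for 4930447N08Rik, 0.28 for Sppl2a, 1.42 for Phka2, 0.89 for mmu_circRNA_26316 and 0.78 for Bbs2, and also 0.10 for Tmcc1 mmu_circRNA_40795, 0.0100 for Cep350 mmu_circRNA_003795, 0.30 for Arhgap10 mmu_circRNA_015986, 0.13 for St6galnac3 mmu_circRNA_010337 and 0.0838 for St6galnac3 mmu_circRNA_19311. These last 3 also turned with cyclic loess (0.0246, 0.0697 and 0.0355), the processed signal (0.0490, 0.0955 and 0.0225) and without replicate 1 of 5 min (0.37, 0.13 and 0.0831), the St6galnac3 rings without replicate 1 of 24 h (0.30 and 0.16), and mmu_circRNA_010337 with array weights (0.12). Over all fits that left out 1 array, the values ran from -0.89 to 0.35 for mmu_circRNA_26316 (0.13 without replicate 3 of 5 min), from -0.49 to 0.0712 for Sppl2a, from -0.0022 to 0.98 for Phf21a mmu_circRNA_34079, from -0.33 to 0.75 for Pcnx mmu_circRNA_25433, from -0.58 to 0.37 for Arhgap10, from -0.48 to 0.30 for mmu_circRNA_010337 and from -0.53 to 0.16 for mmu_circRNA_19311. Of these, Snhg14, Tmcc1 and ASCRP4009917 had been called.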
